A study of Caenorhabditis elegans with 6 samples.

Results

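The genes described here encode the peptide signals of the worm: the FMRFamide-like peptide genes (flp), the neuropeptide-like protein genes (nlp) and the insulin-like peptide genes (ins and daf-28). They were chosen by symbol alone, as every gene named flp, nlp or ins with a number, plus daf-28, and 8 antimicrobial-type genes from nlp-27 to nlp-34 were left out. The rule found 131 of the 31180 genes in the table, with 30 flp genes, 63 nlp genes and 38 insulin-like genes. RNA was sequenced from whole wild-type animals of the N2 Bristol strain of C. elegans at the L4 stage, fed OP50 bacteria. The control group (CTRL) stayed at 20°C and the heat shock group (HS) was moved to 35°C for 4 h, with 3 independent libraries in each. No mutant or transgene was used, and the labels name temperature as the one difference between the groups.

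Neuropeptides and insulin-like peptides are made as larger precursors, cut by proprotein convertases, trimmed and often amidated, and released from dense core vesicles. Flp and nlp peptides mostly act on G-protein coupled receptors of neurons, muscle and gut, whereas insulin-like peptides act through DAF-2, the insulin/IGF receptor, whose activity holds back the stress resistance factor DAF-16. Peptides from the ALA neuron are known for the sleep that follows heat stress, and loss of DAF-2 signalling is known for heat resistance. Protein and promoter sequences were not used here.

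In the table of the authors' DESeq2 comparison, a gene has a mean normalized count of all 6 libraries together (baseMean), a log2 fold change with CTRL as the reference, the standard error of that change (SE) and a 2-sided Wald test. A log2 fold change above 0 is thus a higher level in HS. A gene was called changed when its adjusted p was under 0.05, with Benjamini-Hochberg adjustment over all 21477 genes that have one. An adjusted p was present for 123 of the 131 members, and the other 8, which are ins-2, ins-8, ins-14, ins-15, ins-16, ins-19, ins-25 and nlp-22, had a baseMean of 1.82 or less. The table has no column for a single library. However, its baseMean values carry enough digits that the whole reads of each library could be worked out for 128 members, and these are given below as reads divided by the size factor of the library (normalized counts). The libraries are named CTRL a, b and c and HS a, b and c, and these letters are not the replicate numbers of the labels.

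The size factors were 1.43 to 1.47 in CTRL and 0.536 to 0.923 in HS, so that 1 read was worth 0.682 to 0.6997 normalized counts in CTRL and 1.08 to 1.87 in HS. The 128 members together held 8104 to 9833 reads in the CTRL libraries and 4215 to 7387 in the HS libraries. The heat shock genes hsp-16.2, hsp-70 and hsp-4 were all upregulated. Of 14 neuronal genes that encode no peptide, 2 were upregulated, 2 were downregulated and 10 were not called, and their median log2 fold change was -0.19. Each called share was 14.3%, beside 20.3% higher and 11.4% lower among all tested genes. The summed fitted level of the 14 was 7171 normalized counts in CTRL and 6324 in HS, and none of them was at 0. By library, the 7 of them with recovered reads came to 908, 712 and 723 in CTRL and to 664, 898 and 745 in HS, which overlap. Of 9 epidermal and molting genes, all 7 with an adjusted p were upregulated (median log2 fold change 5.61). The other 2, bli-1 and nas-37, had none despite a baseMean of 1755 and 630. Their log2 fold changes were 6.14 (SE 1.14) and 0.56 (SE 1.09). Over all 9, the summed level was 1032 in CTRL and 20662 in HS. One of the 7, the cuticle collagen gene dpy-7, stood at 8.87, 2.77 and 12.6 in CTRL and at 168, 943 and 72.8 in HS. The library HS b thus stood apart for dpy-7. Whether this difference between the groups bears on the peptide genes was not tested. In whole animals, fewer cells of a type and less RNA per cell cannot be told apart.

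Few peptide genes were called changed. HS upregulated 9 of them, namely flp-1, flp-3, flp-12, nlp-25, nlp-49, nlp-76, ins-4, ins-27 and ins-39, and downregulated 5, namely nlp-9, nlp-26, nlp-40, nlp-47 and ins-22. The upregulated members are 7.32% of the 123 tested, where 20.3% of all tested genes were upregulated. The downregulated members are 4.07%, where 11.4% of all tested genes were downregulated. Peptide genes have low counts, and the same comparison was therefore made at a baseMean of at least 10. There, 8.42% of 95 members were upregulated and 4.21% were downregulated, beside 18.5% and 16.3% of 14273 protein-coding genes (PCGs). Without that filter, the median log2 fold change was 0.09 over the members, 0.26 over all tested genes and 0.07 over all 16835 tested PCGs. With it, the median was 0.09 over the members and -0.008 over PCGs. The lower shares were not tested against the other genes. Without the filter, the median SE of the members of 0.63 was larger than that of all tested PCGs, at 0.40. The filter at a baseMean of 10 did not make the 2 sets alike. Past it, the median baseMean was 53.7 for the members and 270 for PCGs, and the median SE was 0.50 and 0.35.

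**Figure D1:**
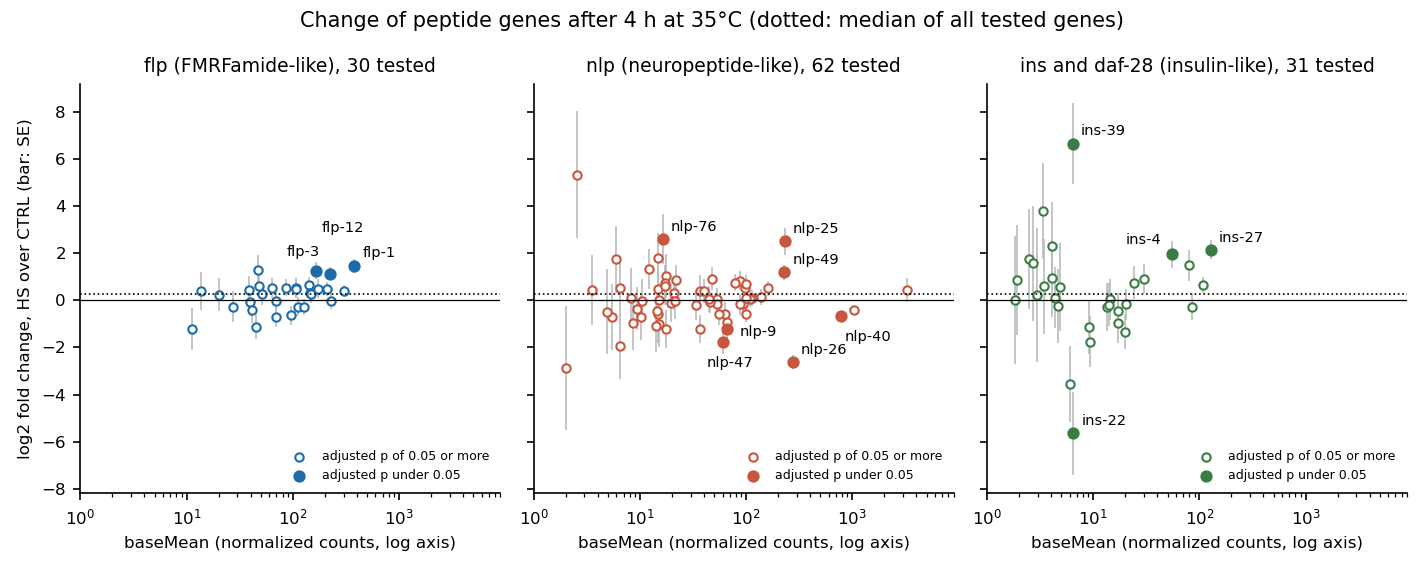
Log2 fold change, HS over CTRL (vertical axis, bars show the SE) against baseMean in normalized counts (horizontal log axis) for the tested members, in 1 panel per family. Filled points are the 14 called members, and most of the 123 points lie near the dotted line, the median of all tested genes at 0.26.

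The families differed in level. The flp genes ran from a baseMean of 11.3 to 381 with a median of 91.7. The nlp genes ran from 0.361 to 3253 with a median of 33.8. The insulin-like genes were low, with a median of 5.44 and a highest value of 127, and 24 of the 38 were under 10. Per kilobase of exon, the highest fitted levels in CTRL were those of nlp-24 at 7328, nlp-36 at 3377, nlp-40 at 1337 and nlp-26 at 1208 normalized counts per kb. The next member, flp-28, was at 474, so that 4 nlp genes stood above all flp and insulin-like genes in CTRL. In HS the first 3 kept their places, at 9930, 2509 and 842, and nlp-26 went from rank 4 to rank 24 of 131.

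Added up over the recovered members of a family and read by library, the flp genes came to 2972, 3060 and 2468 normalized counts in CTRL and to 4056, 3693 and 3805 in HS. These sums did not overlap between the groups, and the mean was 1.36 times higher in HS. The called gene flp-1 alone gave 227, 242 and 139 of the CTRL sums and 571, 588 and 517 of the HS sums. The nlp genes, without the 3 highest, came to 3063, 3194 and 2736 in CTRL and to 3129, 3041 and 3268 in HS, which overlap and differ by a factor of 1.05. The insulin-like genes came to 629, 551 and 467 in CTRL and to 817, 1013 and 797 in HS, without overlap and with a factor of 1.595. Of the HS sums, ins-27 alone gave 161, 288 and 172. The gene ins-33, which was not called, gave 248 of the HS b sum, beside 50.9 in HS a and 50.4 in HS c. No test was made on these sums.

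FMRFamide-like peptide genes. HS upregulated 3 of the 30 flp genes (10%) and downregulated none, beside 20.3% and 11.4% of all tested genes (median log2 fold change of the flp genes 0.35). By the same Wald test, 1 flp gene with a lower level in HS had an unadjusted p under 0.05. The largest rise was that of flp-1, known as a peptide gene of the AVK interneurons that sets locomotion (WBGene00001444, WBcel235 chromosome IV from 9144705 to 9146128, plus strand, 6 exons). Its normalized counts were 227, 242 and 139 in CTRL and 571, 588 and 517 in HS. Every HS library was above every CTRL library, and the spread among the HS libraries was small. The log2 fold change was 1.46 (SE 0.30, adjusted p = 1.16e-05), which took flp-1 from rank 9 to rank 4 of the members per kilobase.

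The other 2 were flp-12 and flp-3, both known from male mating behaviour. Flp-12 (WBGene00001455, chromosome X from 4591281 to 4592350, minus strand) stood at 144, 165 and 114 in CTRL and at 282, 333 and 314 in HS. The groups were clear of each other, with a log2 fold change of 1.13 (SE 0.29, adjusted p = 0.000678). Flp-3 (WBGene00001446, chromosome X from 10091946 to 10092964, minus strand) stood at 106, 96.9 and 89.6 in CTRL and at 212, 328 and 159 in HS. The CTRL libraries lay close together and the HS libraries were spread over a wider range, with HS b highest. The log2 fold change of flp-3 was 1.26 (SE 0.36, adjusted p = 0.00328). Without the library HS b it was 0.93 and no longer passed.

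The highest flp genes after flp-1 were flp-28 and flp-9. Flp-28 gave 272, 255 and 250 in CTRL and 322, 351 and 360 in HS, without overlap, yet its log2 fold change of 0.41 was not called (95% interval -0.06 to 0.88, adjusted p = 0.185). Flp-9 gave 227, 296 and 174 in CTRL and 256, 230 and 189 in HS, with a log2 fold change of -0.04 (95% interval -0.68 to 0.59). The groups overlapped for flp-9, and a change of 2-fold in either direction lies outside its interval. Among flp genes that were not called, flp-10, singled out after its values were seen, had the lowest adjusted p. It encodes a peptide known to slow egg laying through the receptor EGL-6, and stood at 81.2, 57.4 and 45.5 in CTRL and 29.2, 26 and 28 in HS (log2 fold change -1.14, SE 0.50, adjusted p = 0.0651).

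**Figure D2:**
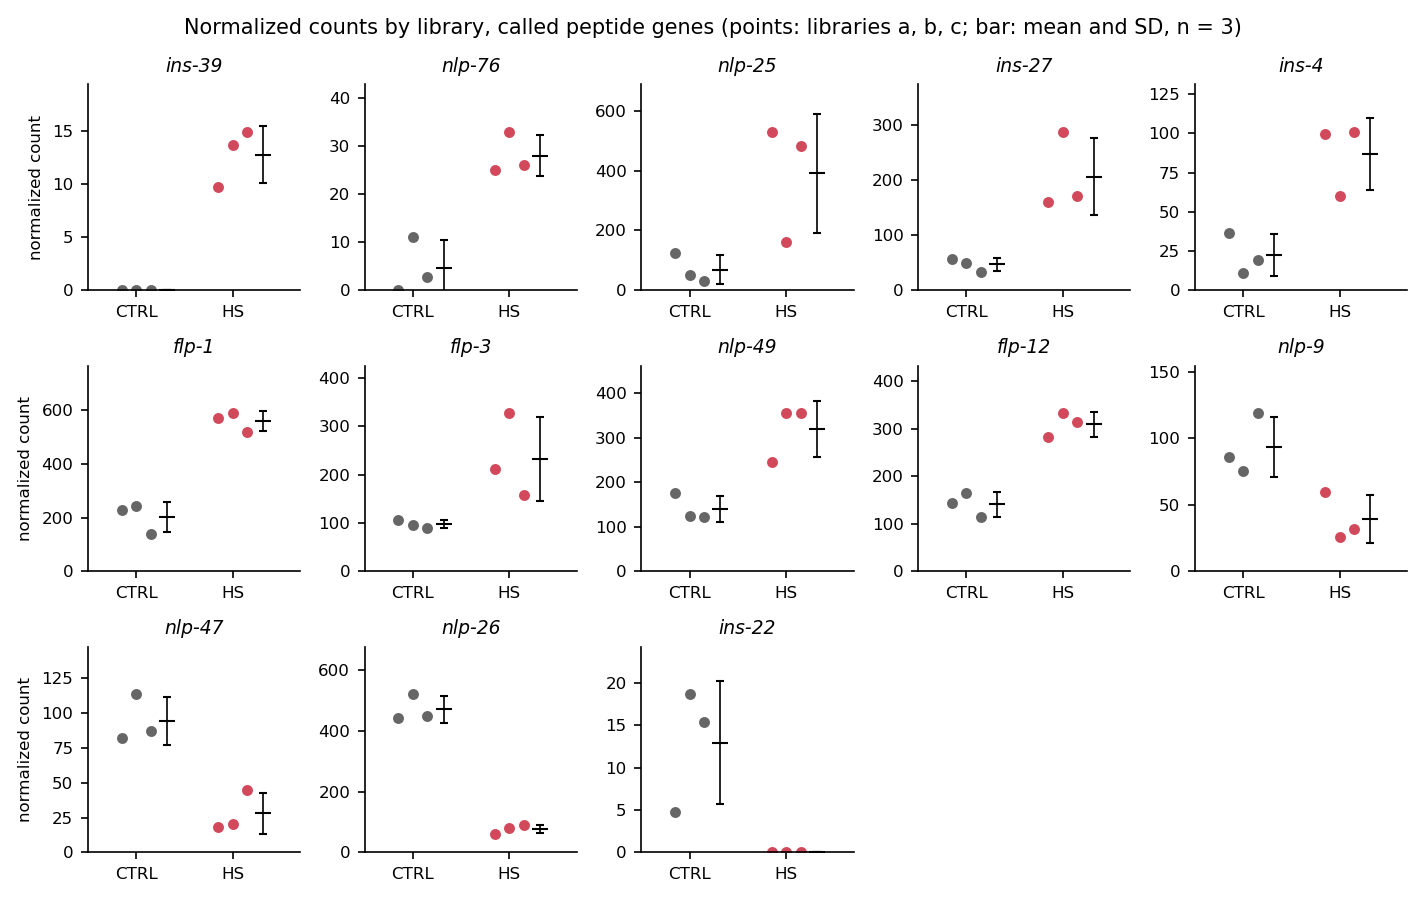
Normalized counts (vertical axis from 0) of each CTRL library (grey points) and HS library (red points) for the 13 called members with recovered reads, with the mean and SD of 3 libraries as a bar. In all 13 the CTRL and HS points do not overlap, and ins-39 in CTRL and ins-22 in HS lie at 0.

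Neuropeptide-like protein genes. HS upregulated 3 and downregulated 4 of 62 tested nlp genes (median log2 fold change 0.02). These are 4.84% and 6.45%, beside 20.3% and 11.4% of all tested genes. The call with the lowest adjusted p among all members was the fall of nlp-26 (WBGene00003764, chromosome V from 19613461 to 19614534, plus strand, 2 exons). It stood at 442, 521 and 448 in CTRL and at 61.7, 80.9 and 89.6 in HS. The lowest CTRL library was far above the highest HS library, and the log2 fold change was -2.62 (SE 0.29, adjusted p = 3.31e-17), which is 6.13-fold lower.

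A nearby member, nlp-25 (WBGene00003763, chromosome V from 19606180 to 19608419, plus strand, 2 exons), went the other way. Both belong by sequence to the group of glycine-rich peptide genes that starts with nlp-24, and nlp-25 and nlp-26 lie within 8355 bp on the same strand. Nlp-25 stood at 126, 50.5 and 32.2 in CTRL and at 529, 163 and 482 in HS. The groups did not overlap, though the library HS b was lower than the other HS libraries, and CTRL a was the nearest to it. The log2 fold change was 2.49 (SE 0.55, adjusted p = 7.24e-05). Nlp-24 itself, known as an opioid-like peptide gene that promotes feeding in starved animals, was the highest member, with fitted means of 2763 in CTRL and 3744 in HS. Its log2 fold change was 0.44 (95% interval -0.58 to 1.46, adjusted p = 0.55), and its reads by library were not recovered.

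The nlp genes nlp-47, nlp-40 and nlp-9 also fell. Nlp-47 (WBGene00018117, chromosome IV from 5290847 to 5293654, plus strand), which encodes a peptide related to gonadotropin-releasing and adipokinetic hormone, stood at 81.9, 113 and 86.8 in CTRL and at 18.4, 20.6 and 44.8 in HS. These do not overlap, and the log2 fold change was -1.79 (SE 0.50, adjusted p = 0.0025). Nlp-40 (WBGene00022276, chromosome I from 11495 to 16837, plus strand), the peptide that the gut releases to time the expulsion step of defecation, had fitted means of 955 in CTRL and 601 in HS. It was a small change at a high level, with a log2 fold change of -0.67 (SE 0.23, adjusted p = 0.017), and no values by library were recovered for it. Nlp-36, the second highest member, had fitted means of 1189 and 883 and was not called (log2 fold change -0.43, 95% interval -0.83 to -0.03, adjusted p = 0.0913).

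The fall of nlp-9 (WBGene00003747, chromosome V from 4219642 to 4222233, plus strand) depended on single libraries. It stood at 86.0, 75.4 and 118.9 in CTRL and at 59.6, 26 and 31.7 in HS, with HS a near the CTRL range but below it. The log2 fold change was -1.24 (SE 0.49, adjusted p = 0.0379). With 1 library left out it ranged from -1.70 to -1.01, and it passed only when CTRL b or HS a was the library left out.

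Of the other nlp genes that rose, nlp-49 (WBGene00019160, chromosome X from 5904653 to 5905345, plus strand) encodes a peptide that acts on the receptor SEB-3 and is known from arousal. It stood at 175, 125 and 121 in CTRL and at 246, 355 and 355 in HS, with no overlap and a log2 fold change of 1.18 (SE 0.32, adjusted p = 0.00132). Nlp-76 (WBGene00045386, chromosome X from 12662478 to 12663903, minus strand) had 0, 16 and 4 reads in CTRL and 23, 24 and 14 reads in HS. That is 0, 11.1 and 2.80 normalized counts against 24.9, 32.9 and 26.1, without overlap. Its log2 fold change of 2.60 (SE 1.07, adjusted p = 0.0487) was close to the threshold and passed in only 1 of 6 fits with a library left out, the one without CTRL b. It also shares its position and strand with the larger gene nhr-17, which was itself upregulated (log2 fold change 1.63, SE 0.36, adjusted p = 4.8e-05), and reads of the pair cannot be told apart here.

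Insulin-like peptide genes. HS upregulated 3 and downregulated 1 of the 31 tested insulin-like genes (median log2 fold change 0.23). These are 9.68% and 3.23%, beside 20.3% and 11.4% of all tested genes. Ins-27 (WBGene00002110, chromosome I from 14027236 to 14027588, plus strand, 2 exons) had the highest baseMean of the family. It stood at 58.0, 49.8 and 33.6 in CTRL and at 161, 288 and 172 in HS. The groups were well separated, and the log2 fold change was 2.13 (SE 0.40, adjusted p = 1.88e-06). Per kilobase it went from rank 25 to rank 5 of all members.

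Ins-4 (WBGene00002087, chromosome II from 5996366 to 5997008, plus strand, 2 exons) encodes an agonist of DAF-2. It stood at 36.8, 11.1 and 19.6 in CTRL and at 99.7, 60.3 and 101 in HS, with all HS libraries above all CTRL libraries. The log2 fold change was 1.95 (SE 0.56, adjusted p = 0.00311).

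The other 2 calls are genes without any read in 1 of the groups. Ins-39 (WBGene00017668, chromosome X from 1343758 to 1344421, minus strand) had 0 reads in each CTRL library and 9, 10 and 8 reads in HS, which is 9.75, 13.7 and 14.9 normalized counts. Set against 3 reads over the CTRL group, the limit that a count of 0 allows, its level was at least 17.8-fold higher in HS (adjusted p = 0.000838). Ins-22 (WBGene00002105, chromosome III from 10026289 to 10026686, plus strand), whose product carries a fluorescent tag in many studies of dense core vesicles, had 7, 27 and 22 reads in CTRL and 0 in each HS library. This is 4.78, 18.7 and 15.4 normalized counts against 0, and its level was at least 9.41-fold lower in HS by the same limit (adjusted p = 0.00691). Both genes passed the filter on low counts only through the group in which they were seen, and the limits cover counting error only.

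The 5 DAF-2 agonists did not move as a group. Next to ins-4, the other 4 had log2 fold changes below 0, namely daf-28 at -0.19 (SE 0.91), ins-3 at -0.45 (SE 0.76), ins-6 at -1.13 (SE 1.15) and ins-7 at -0.95 (SE 0.85), and none was called. The counts of ins-6, which with daf-28 is known for keeping larvae out of dauer arrest, were 10.9, 11.1 and 15.4 in CTRL and 4.33, 12.3 and 0 in HS. Those of ins-7, known as a feedback signal between gut and other tissues, were 37.5, 13.1 and 17.5 in CTRL and 16.25, 4.11 and 14.9 in HS. The groups overlapped for all 4, and the 95% interval of daf-28, from -1.97 to 1.59, leaves room for a change of over 2-fold in either direction.

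Of the 5 peptides known or proposed to oppose DAF-2 signalling, only ins-39 was called. This is 20% upregulated, the same share as among the 5 agonists, beside 20.3% of all tested genes. Ins-17 came closest among the rest, at 76.4, 103 and 74.9 in CTRL and 132, 149 and 116 in HS, where the groups do not overlap (log2 fold change 0.65, SE 0.35, adjusted p = 0.142). Ins-18 had a log2 fold change of 0.74 (SE 0.70), ins-1 of 0.03 (SE 0.87) and ins-37 of -0.28 (SE 0.57). The value of ins-37 was set by 1 library, since its counts were 107, 84.4 and 91.0 in CTRL and 109, 20.6 and 103 in HS.

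The peptide genes known from sleep were not called. Of 6, nlp-22 had 2 reads in all and no adjusted p, and the other 5 had log2 fold changes from -0.56 to 0.64. Over all tested genes 20.3% were upregulated and 11.4% downregulated, and 5 genes are few to set beside such shares, which was not tested. At an unadjusted p under 0.05 the Wald test also counted 0 of the sleep genes. Flp-13, from the ALA neuron, stood at 62.8, 83.0 and 66.5 in CTRL and at 109, 85.0 and 112 in HS. The groups were narrowly separate, and its log2 fold change was 0.53 (95% interval -0.19 to 1.25, adjusted p = 0.271). Flp-24, also from ALA, stood at 159, 141 and 132 in CTRL and 258, 107 and 245 in HS, which overlap (0.50, 95% interval -0.28 to 1.27). The third ALA gene, nlp-8, had a log2 fold change of -0.16 (95% interval -1.01 to 0.69). Flp-11, from the RIS neuron, had 0.64 (95% interval -0.06 to 1.35), and nlp-14 had -0.56 (95% interval -1.50 to 0.37). All 5 intervals reach a 2-fold change in 1 direction, and none reaches a 4-fold change.

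**Figure D3:**
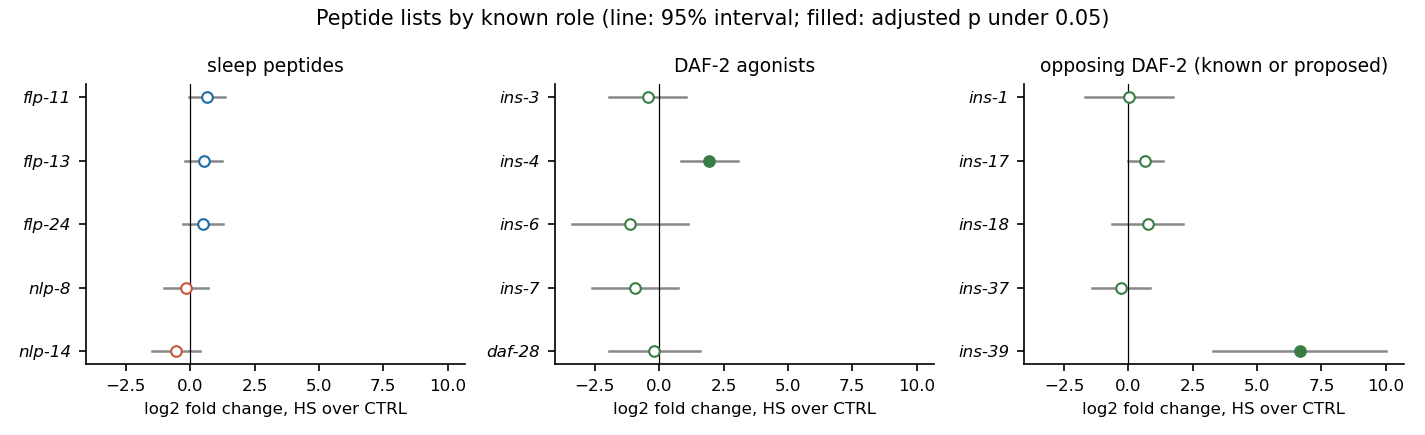
Log2 fold change, HS over CTRL (horizontal axis) with its 95% interval for the tested sleep peptide genes, DAF-2 agonists and genes known or proposed to oppose DAF-2, where a filled point has an adjusted p under 0.05. Only ins-4 at 1.95 and ins-39 at 6.65 are filled, and the value of ins-39 is a fit against a group at 0 and no measure of the fold.

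Several called genes lie beside other peptide genes on the chromosome. Within runs of members less than 20000 bp apart, the 7 genes ins-24 to ins-30 span 25409 bp on chromosome I and only ins-27 was called. Their log2 fold changes ran from -1.77 for ins-29 to 3.46 for ins-25, which had no adjusted p. Ins-30, at 33.4, 15.2 and 37.1 in CTRL and 8.67, 11 and 14.9 in HS, went the other way without being called (log2 fold change -1.33, adjusted p = 0.153). On chromosome II, 6 insulin-like genes, including the agonists ins-3, ins-4 and ins-6, span 22798 bp and only ins-4 was called. Ins-22 lies within 2409 bp of ins-23 on chromosome III, and ins-23 had a log2 fold change of 0.10 (SE 1.29). Flp-3 lies between flp-28 and flp-2 within 7932 bp on chromosome X, and flp-2 had -0.08 (SE 0.59). Differences between the neighbours were not tested.

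**Figure D4:**
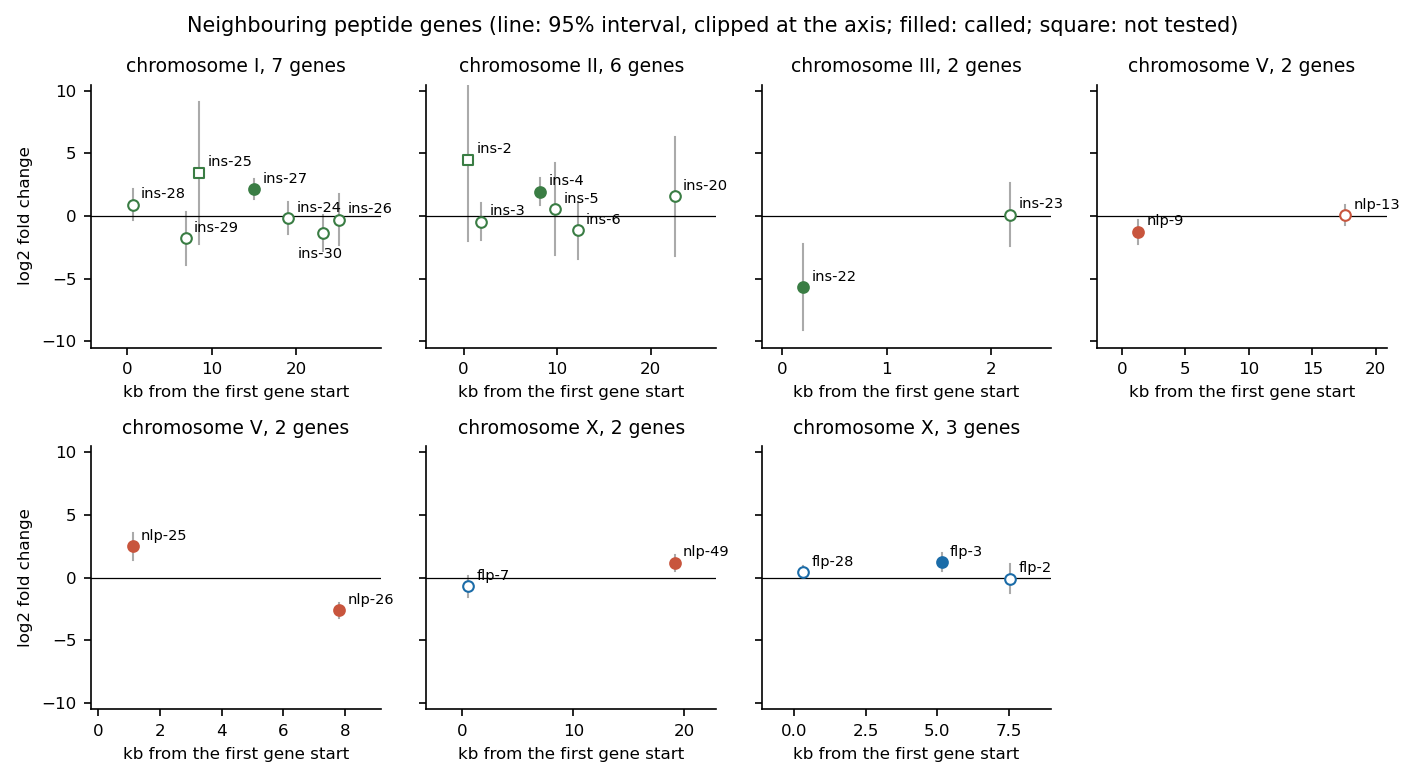
Log2 fold change, HS over CTRL (vertical axis, line shows the 95% interval) against distance along the chromosome in kb from the start of the first gene, for the 7 runs of neighbouring members that hold a called gene. Filled points are called, squares had no adjusted p, and nlp-25 at 2.49 and nlp-26 at -2.62 are the only neighbours that are both called.

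Reads from an upstream or overlapping gene could enter these counts, and the values of such genes were therefore looked up. Of the 9 upregulated members, 5 have a tested PCG as their nearest upstream neighbour on the same strand, and 0 of these neighbours were upregulated by the Wald test, also at an unadjusted p under 0.05. For nlp-25 this is kcnl-1, which ends 55 bp away (log2 fold change -0.71, adjusted p = 0.311). For the downregulated nlp-26 it is grsp-1, 1310 bp away, which was upregulated (log2 fold change 2.74, adjusted p = 7.69e-08). On the opposite strand, flp-1 overlaps daf-10 (log2 fold change 0.34), flp-3 overlaps W07E11.1 (0.44) and nlp-26 overlaps Y43F8C.3 (0.61), none of which was called. The libraries keep the strand, but whether the counting used it is not given in the sources used here.

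Members also differed in how much they varied between libraries. At a baseMean of at least 10, the median coefficient of variation over 92 members was 26.5% in CTRL and 34.4% in HS, and it was higher in HS for 49 of them. The insulin-like genes went the other way, with 42.5% in CTRL and 35.4% in HS, and it was higher in HS for 6 of 14. The HS libraries held 4215 to 7387 reads of members, beside 8104 to 9833 in CTRL. How much of the spread is counting error was not tested. In 14 of these members at least 1 library was 3-fold or more away from both others of its group. HS b gave 8 of the 20 such values, 4 above and 4 below. One of these was ins-33, at 59.4, 40.8 and 25.2 in CTRL and at 50.9, 248 and 50.4 in HS. Its log2 fold change of 1.48 (SE 0.67, adjusted p = 0.0746) fell to 0.28 without HS b, the library that was also highest for dpy-7. Nlp-35 had the same shape in HS, with 54.8 in HS b against 9.75 and 5.60. These members were singled out after their values were seen.

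Over all 128 members with reads, the groups did not overlap in 34, with 23 higher and 11 lower in HS. They include all 13 called members with reads and 21 that were not called. The calls rest on these same libraries, so that the lack of overlap is no separate support for them. Of all tested genes, 20.3% and 11.4% were called higher and lower, which is another measure than groups that do not overlap. The latter was not counted over all genes, so that its share there is not known. With 3 libraries in each group, some genes separate without any change, and how many of the 34 do so was not tested. One that was not called is flp-14, known from locomotion, which stood at 187, 195 and 142 in CTRL and at 272, 237 and 217 in HS, with a log2 fold change of 0.47 (95% interval -0.10 to 1.05).

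The rest of the peptide pathway, taken from lists of known genes, was described with the same test. Of 11 processing enzymes, 2 were upregulated, which is 18.2% beside the 20.3% of all tested genes. None was downregulated, and pamn-1, an amidating enzyme gene, was lower at an unadjusted p under 0.05 only (log2 fold change -0.64, SE 0.32, adjusted p = 0.113). The upregulated genes were kpc-1, a furin-like convertase (log2 fold change 1.57, SE 0.33, adjusted p = 2.56e-05), and cpd-2, a carboxypeptidase D gene (1.17, SE 0.40, adjusted p = 0.0143). Cpd-2 stood at 203, 201 and 185 in CTRL and 231, 691 and 403 in HS, with HS b highest. The main neuronal enzymes, the convertase egl-3 (0.24, SE 0.22) and the carboxypeptidase egl-21 (0.26, SE 0.23), were not called, and changes of 2-fold lie outside their intervals. Of 13 genes for dense core vesicles, hid-1, which acts in making the vesicles, was downregulated (-0.66, SE 0.25, adjusted p = 0.0313), and it was also the only 1 of the 13 with an unadjusted p under 0.05. It makes up 7.69% of the list, beside the 11.4% of all tested genes. Hid-1 stood at 383, 374 and 367 in CTRL and 253, 252 and 204 in HS, without overlap.

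Of 99 tested receptor genes, 3 were upregulated and 2 were downregulated, which are 3.03% and 2.02% beside the 20.3% and 11.4% of all tested genes. Receptor counts were low, with a median baseMean of 17.9 and 29 of all 105 under 10. Their median SE was 0.80, beside 0.50 for all tested genes, and the shares were not tested against each other. The largest change was that of frpr-13, a gene of the FMRFamide receptor family, at 18.4, 28.4 and 7.0 in CTRL and 472, 354 and 528 in HS. The HS libraries were all more than 10-fold above the highest CTRL library, with a log2 fold change of 4.65 (SE 0.45, adjusted p = 1.98e-23). Trhr-1, which encodes a receptor related to that of thyrotropin-releasing hormone, had 2.67 (SE 0.52, adjusted p = 3.87e-06), and npr-13 had 2.31 (SE 0.84, adjusted p = 0.0225). Egl-6, the receptor of FLP-10 and FLP-17 peptides in egg laying, stood at 36.8, 35.3 and 39.9 in CTRL and 9.75, 17.8 and 11.2 in HS (-1.53, SE 0.63, adjusted p = 0.0461). Npr-16 fell from 47.8, 54.0 and 35.0 to 10.8, 13.7 and 3.73 (-2.23, SE 0.68, adjusted p = 0.00515). The insulin receptor gene daf-2 was not called.

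Of 7 peptide genes outside the symbol rule, 2 were upregulated (28.6%, beside the 20.3% of all tested genes) and none was downregulated, and 4 had an unadjusted p under 0.05 in either direction. Pdf-2, a gene for a pigment dispersing factor-like peptide, stood at 50.5, 53.3 and 39.9 in CTRL and 76.9, 141 and 105 in HS (1.16, SE 0.42, adjusted p = 0.0205). Lury-1, known from feeding and egg laying, stood at 30.02, 18.7 and 9.80 in CTRL and 62.8, 45.2 and 54.1 in HS (1.47, SE 0.59, adjusted p = 0.041). Trh-1, whose peptide is the ligand of TRHR-1, stood at 7.50, 20.8 and 4.20 in CTRL and 34.7, 32.9 and 35.5 in HS, without overlap, and was not called (1.67, SE 0.76, adjusted p = 0.0766). Of the 7 genes, 5 had a log2 fold change above 0 and 2 below it. Pdf-1, which had the highest baseMean of the 7, went the other way from pdf-2. It stood at 197.9, 206.2 and 181.2 in CTRL and 114.8, 149.4 and 110.2 in HS, without overlap. Pdf-1 was not called (-0.64, SE 0.30, adjusted p = 0.0918).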

How the data were processed

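Stranded, rRNA-depleted RNA-seq of whole N2 animals gave 3 CTRL and 3 HS libraries. The authors trimmed with fastq-mcf, aligned with STAR to WBcel235, counted with FeatureCounts on Ensembl release 88 and compared the groups with DESeq2 (versions not given in the sources used here). The signal column deposited by the authors (baseMean) is a mean of counts divided by size factors. The log2 fold change with its SE, the Wald score, and the p-value with its adjusted value are columns of the authors' own comparison, and they are used because the deposited table holds nothing else (0 columns of single libraries). The Wald test and its adjustment were computed again from the log2 fold change and SE, over 21477 genes, and matched the listed adjusted p within 6.16e-15.

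Reads of single libraries were worked out as follows. The lowest baseMean values shared by many genes stand for 1 read in 1 library and give the 6 size factors. A library was placed in CTRL or HS by the listed fold change of those genes. Each baseMean, printed with up to 15 digits, was then solved for 6 whole read numbers, by full search up to a baseMean of 12 and around the fitted group means above it. A solution was kept if it alone gave back the listed log2 fold change. Of 131 members, 117 passed this check, with a largest difference of 1.22e-05, and 11 low members had a single solution without it. Nlp-24, nlp-36 and nlp-40, with a baseMean above 400, were not solved. On simulated reads, 45 of 46 genes were recovered and 0 were wrong. Total depth is not known from the table.

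Intervals are 95% normal intervals of the log2 fold change. Positions are from Ensembl release 115, matched by gene ID, and 217 genes had none. The members and lists were chosen with earlier results of these data known. Genes were named if they were called members, among the 3 highest of a family, in the sleep, agonist or antagonist lists, or called in a pathway list; others were chosen after their values were seen. Alternatives were other thresholds and filters, a t distribution, a test against a 2-fold change and centring. Leaving out each library was added after the data were seen. Python 3.11.15, numpy 2.4.6, pandas 2.3.3, scipy 1.17.1 and matplotlib 3.10.9 were used.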

Additional observations from a re-analysis of the deposited data

How the results depend on the processing

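Counts of called members moved most with the reference distribution and with the size of change tested. With a t distribution of 4 degrees of freedom, 0 members were higher and 0 lower, with 8 and 4 at an unadjusted p under 0.05. The lowest adjusted p of a member was then 0.0654, for nlp-26, and 106 genes of the whole table were called. A test against a 2-fold change left 1 member lower (nlp-26) and 1 higher, ins-39, whose fitted value against a CTRL group at 0 is no measure of the fold. An adjusted p under 0.01 left 3 lower members (ins-22, nlp-26 and nlp-47) and every higher member but nlp-76. The thresholds the study used for PCGs (2-fold, baseMean of at least 100, adjusted p under 0.01) left 1 lower member, nlp-26. The higher members left by them were flp-1, flp-3, flp-12, nlp-25, nlp-49 and ins-27. When every gene with a p-value entered the adjustment, nlp-9 and nlp-76 lost their calls (adjusted p = 0.055 and 0.0705). With 1 library left out, 7 to 10 members were higher and 4 to 5 lower. Those fits kept the dispersion of the full fit and the unadjusted p of 0.0158 that bounds the calls, and ins-22, ins-39 and nlp-40 were not fitted again and counted as called. The median log2 fold change of the insulin-like genes was -0.07 among 14 members with a baseMean of at least 10 and 1.48 among 5 with at least 50, where it is the value of ins-33. With 1 library left out the latter ranged from 0.55, without HS b, to 1.83. No called member that was fitted again changed direction with 1 library left out. The other alternatives kept the listed log2 fold changes, except centring, which added 0.05 to each, so they could not test the direction. No paired analysis was possible because the table has no column of a single library and the recovered libraries carry no replicate number.

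In the shallowest HS library 1 read is worth 1.87 normalized counts, and differences of a few reads were not detectable at this depth.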
